A study of Mus musculus with 30 samples.

Results

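Liver and small intestine were set against each other as 2 organs of one mouse tissue survey, 2 arrays of liver and 2 arrays of small intestine out of 30 arrays of 15 tissues. The arrays were chosen by their labels alone. The animals were untreated C57BL/6 males, for which the labels give an age of 28 weeks and the study's methods a different one, and no group carried a transgene or received an agent. The organs were taken whole, so each array holds every cell type of its organ, and a lower level in bulk tissue cannot be told apart from fewer cells of the type that makes the transcript. Each array was hybridized with tissue RNA in Cy3 and with a common reference RNA in Cy5, pooled from mouse cell lines and embryonic stem (ES) cells, and the measurement is log2(Cy3/Cy5), called the logratio here. Of 25030 probes in the value table, 21019 were tested because the tissue channel exceeded background clearly in both replicates of some tissue.

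The liver and the absorptive lining of the small intestine are the organs that nutrients and drugs meet first. The hepatocyte makes plasma proteins, urea, bile acids and lipoproteins, and oxidizes fatty acids. The enterocyte carries digestive enzymes on its brush border, packs absorbed fat into particles, and also holds part of the urea cycle, from which it releases citrulline. Both cells take part in the first pass of drug metabolism. The comparison therefore asks which metabolic genes the organs share above other tissues and which are kept to one of them. A list of 395 metabolic genes in 9 groups was used, of which 172 had a probe with a symbol and 169 were tested. Symbols were known for 24% of the tested probes, with 10.8% of the symbols starting with A, because the probe lists that gave them were held in part, so absence of a gene from the text says nothing about its expression.

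Marker genes were set beside the labels first. The marker lists were chosen with earlier results of these data known, so they are no independent check of the labels. The enterocyte markers Sis, Lct, Vil1 and Alpi and the hepatocyte markers Aox3, Agxt and Apoa2 also belong to the metabolic list. All 8 hepatocyte markers with a tested probe were higher in liver, and all 6 enterocyte markers were higher in small intestine. The summed Cy3 level of the hepatocyte markers was 944000 and 1010000 in the liver arrays against 1890 and 1930 in the small intestine arrays. That of the enterocyte markers was 615 and 624 in liver against 881000 and 1210000 in small intestine, and none of the 6 was above background in liver. Replicates correlated at r = 0.984 for liver and r = 0.97 for small intestine over the tested probes, and arrays of different organs at 0.53 to 0.543. On the 4 arrays 53.9% to 61.2% of probes were above background in Cy3. The liver arrays were scanned on one day and the small intestine arrays on another, on different slides, so scan day and organ cannot be told apart in the direct comparison.

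Between the organs, 2327 probes were higher in liver (11.1% of those tested) and 2839 were higher in small intestine (13.5%), at a Benjamini-Hochberg adjusted p under 0.05 in limma and a difference of at least 1 on the log2 scale. Together 24.6% were called. Against these shares, 66 of the 169 metabolic genes were higher in liver (39.1%) and 28 were higher in small intestine (16.6%), while 75 were not called. The median difference, liver minus small intestine, was 0.40 over the metabolic genes and -0.0068 over all probes. The arrays of the organs did not overlap for 148 metabolic genes (87.6%), against 71.8% of all probes. The groups fell into an order, from amino acid metabolism, with a median of 1.99 in favour of liver, through lipid synthesis (1.54), fatty acid oxidation (1.07) and acyl-CoA enzymes (0.58), to the tricarboxylic acid (TCA) cycle (-0.69) and the brush border (-4.10).

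**Figure D1:**
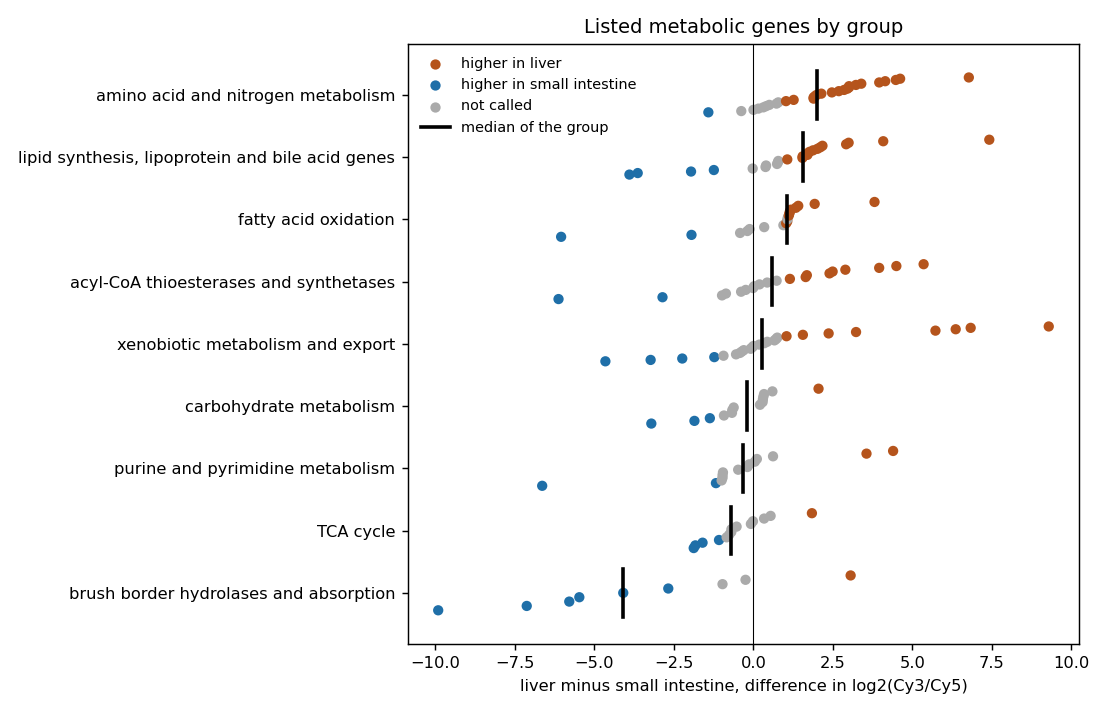
Difference in log2(Cy3/Cy5), liver minus small intestine, for the tested genes of 9 metabolic groups, with 1 point per gene, coloured by the call, and a black bar at the group's median. The amino acid group lies mostly to the right, with 20 of 29 genes higher in liver, and the brush border group mostly to the left, with 6 of 9 higher in small intestine.

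A gene was counted as shared when both organs exceeded the mean of the 13 other tissues in limma and all 4 arrays were above background. Each organ was enriched for 11.4% of all probes (2391 in liver and 2396 in small intestine), and 3.41% of all probes were shared. Among the metabolic genes 76 were enriched in liver (45%), 49 in small intestine (29%) and 26 were shared (15.4%). Both enrichments use the same 13 tissues. Of the 26 shared genes, 10 were higher in liver, 0 were higher in small intestine and 16 were not called between the organs at the limma threshold. Liver was the highest of the 15 tissues for 16 of the 26, small intestine for 2, and both organs were among the first 3 tissues for 18.

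**Figure D2:**
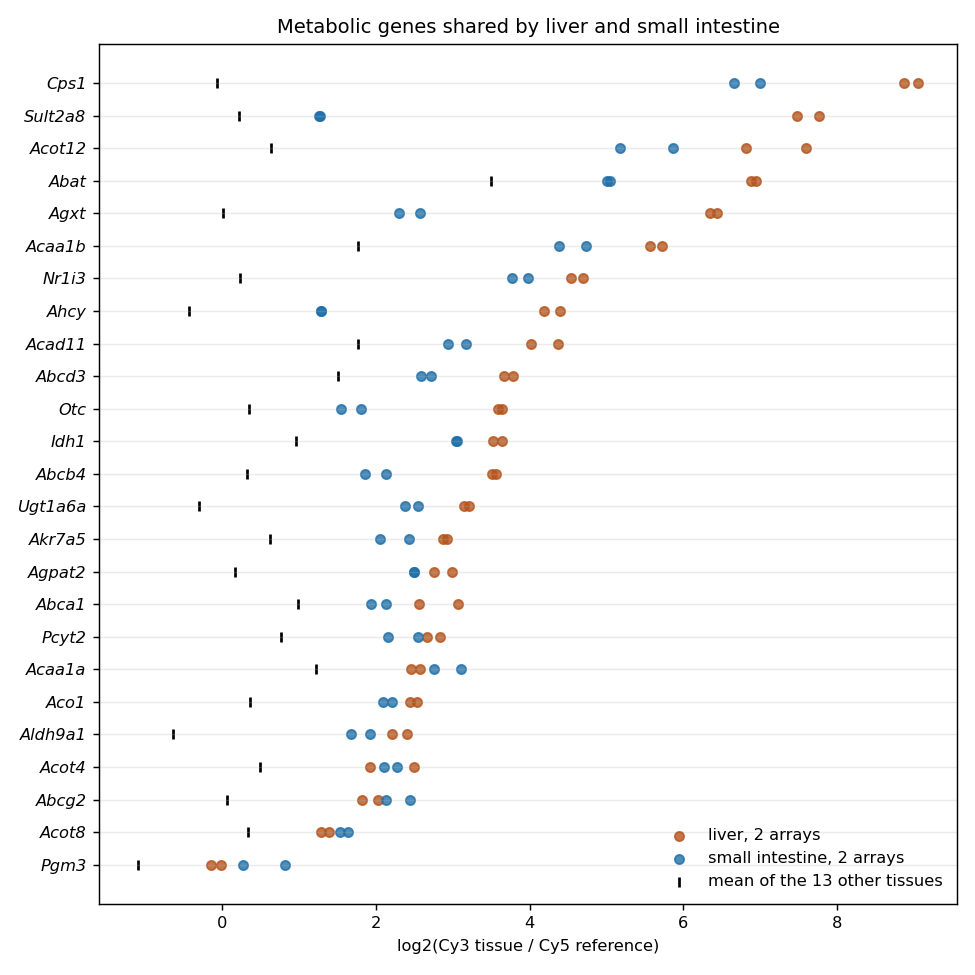
log2(Cy3/Cy5) of 25 of the 26 shared metabolic genes on each of the 2 liver and 2 small intestine arrays, with a tick at the mean of the 13 other tissues. Cps1 is at the top with 8.87 and 9.06 in liver and 6.66 and 7.0 in small intestine, and both organs lie to the right of the tick for every gene shown.

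The mitochondrial steps of the urea cycle were shared. Cps1, carbamoyl phosphate synthetase, which fixes ammonia as the first step of the cycle, had logratios of 9.06 and 8.87 in liver and 7.0 and 6.66 in small intestine. These were the highest levels among the 15 tissues, and large intestine came next, where the arrays stood apart at 4.34 and -0.14. Liver exceeded the mean of the 13 other tissues by 9.03 and small intestine by 6.89 on the log2 scale. Liver was 2.13 ± 0.76 (SE) above small intestine with a limma adjusted p of 0.035, which rose to 0.134 without liver replicate 1, 0.101 without liver replicate 2, 0.0879 without small intestine replicate 1 and 0.151 without small intestine replicate 2. The fit pools the spread of all tissues, and without fat, large intestine and bone the adjusted p was 1.29e-09. The Cps1 call was also lost with the processed signals (1.25, adjusted p = 0.566), the value table (1.25, adjusted p = 0.512) and no background correction (2.12, adjusted p = 0.051).

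Otc, ornithine transcarbamylase, which makes citrulline in the next step, had logratios of 3.64 and 3.58 in liver and 1.81 and 1.54 in small intestine. The organs did not overlap, and liver was 3.83-fold higher (1.94 ± 0.16 on the log2 scale, limma adjusted p = 1.74e-08). In small intestine Otc stood 1.32 above the mean of the 13 other tissues. Muscle, the highest of them, was at 1.46, close to the small intestine mean of 1.68.

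Other shared genes of amino acid metabolism leaned to liver. Agxt, alanine-glyoxylate aminotransferase, read 6.34 and 6.44 in liver and 2.57 and 2.30 in small intestine, a difference of 3.96 ± 0.20 (limma adjusted p = 1.08e-11) that was 1.64 (adjusted p = 0.227) with the processed signals. Ahcy, which splits S-adenosylhomocysteine, read 4.18 and 4.40 in liver and 1.28 and 1.29 in small intestine, an 8.04-fold difference (limma adjusted p = 9.47e-12). Abat, which breaks down the transmitter GABA, was 3.71-fold higher in liver (limma adjusted p = 3.66e-06), yet cerebellum and kidney, with means of 6.69 and 6.68, were close to the liver mean of 6.92. Aldh9a1, an aldehyde dehydrogenase of carnitine synthesis, was not called between the organs, at 2.30 in liver and 1.80 in small intestine, a difference of 0.50 ± 0.29 (SE). Kidney was the highest other tissue for Aldh9a1, as it was for 10 of the 26 shared genes.

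Peroxisomal oxidation of fatty acids supplied the next shared genes. Abcd3, a transporter of the peroxisomal membrane, had 3.78 and 3.67 in liver and 2.72 and 2.59 in small intestine. Its difference of 1.07 ± 0.46 did not pass, with a limma adjusted p of 0.0824, which was 9.41e-05 without fat, large intestine and bone. The 3-ketoacyl-CoA thiolase genes Acaa1a and Acaa1b, close paralogs whose probes may cross-hybridize, were both shared. Acaa1a was one of the 2 shared genes with small intestine as the highest tissue, at 2.76 and 3.11 against 2.45 and 2.58 in liver, although the difference of -0.42 was below the minimum of 1.

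Among the acyl-CoA thioesterases, which release free fatty acids from their CoA esters, Acot12, Acot4 and Acot8 were shared. Acot12 stood far above most tissues, with 7.59 and 6.81 in liver and 5.17 and 5.87 in small intestine against a kidney mean of 7.41. Large intestine and stomach were near 0 for Acot12, at 0.033 and 0.074. Acot4 had 1.92 and 2.50 in liver and 2.10 and 2.27 in small intestine, so the arrays overlapped, and its difference was 0.021 ± 0.19 (SE).

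For xenobiotic metabolism, Nr1i3, the constitutive androstane receptor that drives many drug-metabolizing genes, had logratios of 4.54 and 4.70 in liver and 3.77 and 3.97 in small intestine, and the highest of the 13 other tissues, large intestine, was at 0.65. The arrays of the organs did not overlap, but the difference of 0.75 ± 0.15 was below the minimum of 1. Ugt1a6a, a glucuronosyltransferase whose probe may also read other Ugt1a transcripts, had 3.14 and 3.22 in liver and 2.38 and 2.55 in small intestine. Sult2a8, a sulfotransferase, met the rule for sharing but was 82.2-fold higher in liver (7.48 and 7.77 against 1.27 and 1.26, limma adjusted p = 3.36e-12). Abcg2, an efflux pump, was at 2.03 and 1.82 in liver and 2.45 and 2.14 in small intestine, and kidney exceeded both at 3.69. Its difference between the organs, -0.37 ± 0.91, was not called and changed sign with slide (0.27) or scan day (1.43) as a random block.

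Of the lipid synthesis, lipoprotein and bile acid genes, 4 of 24 were shared (16.7%, against 3.41% of all probes): Abca1, Abcb4, Agpat2 and Pcyt2. For Abca1, fat at 3.33 was above both liver (2.81) and small intestine (2.03). Abcb4, which moves phosphatidylcholine into bile, had 3.51 and 3.56 in liver and 1.86 and 2.13 in small intestine. Muscle (3.24), bone (3.20) and heart (2.18) were above its small intestine mean of 1.99. Agpat2, an acyltransferase of glycerolipid synthesis, and Pcyt2, of phosphatidylethanolamine synthesis, had both organs as the first 2 of the 15 tissues and differed by 0.38 ± 0.28 and 0.40 ± 0.18. Of the TCA cycle list, Aco1 and Idh1, which encode the cytosolic aconitase and isocitrate dehydrogenase, were shared, with differences of 0.33 ± 0.14 and 0.54 ± 0.38 that were not called.

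**Figure D3:**
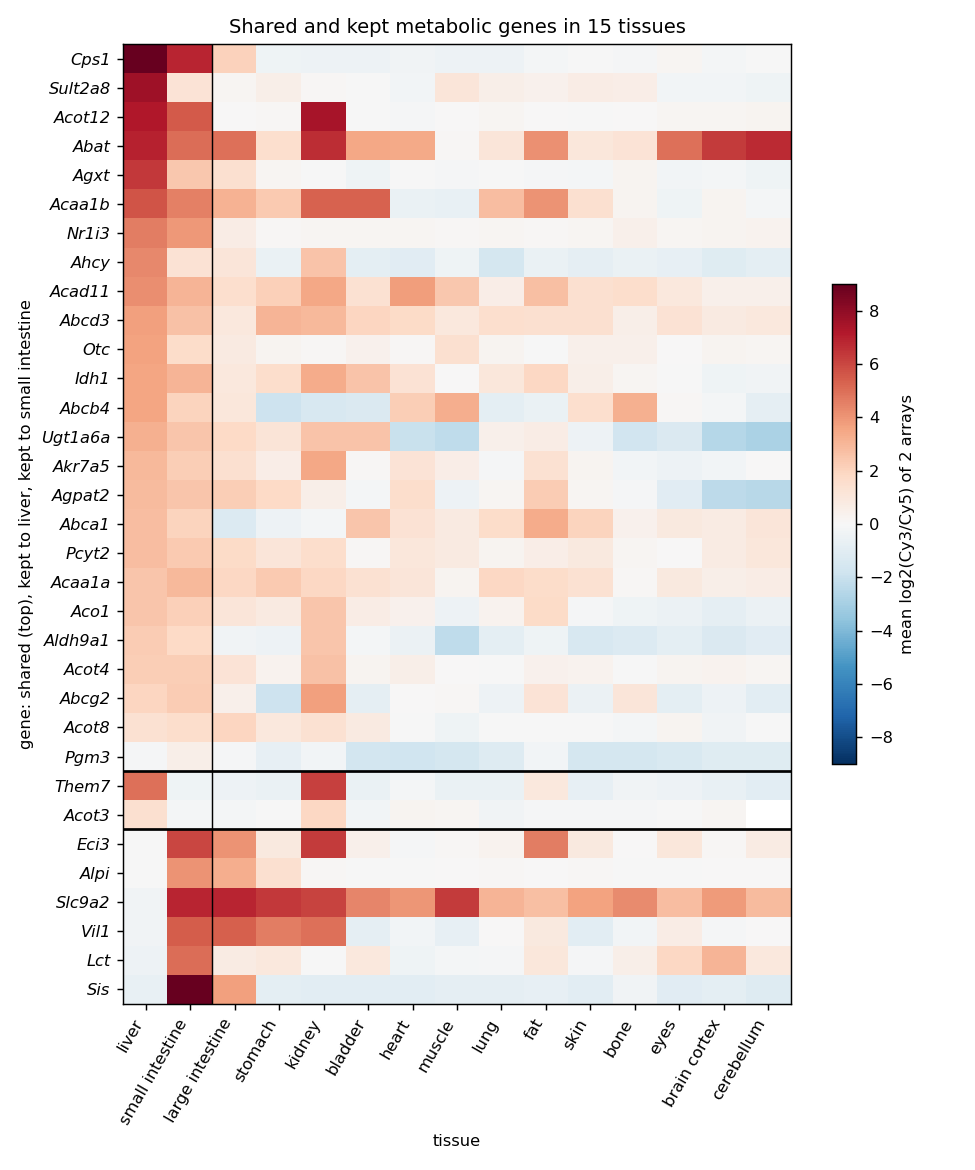
Mean log2(Cy3/Cy5) of 2 arrays for 25 of the 26 shared genes, the 2 kept to liver and the 6 kept to small intestine, with genes as rows and the 15 tissues as columns. Both organs are among the first 3 tissues for 18 of the 26 shared genes, kidney is also high for Acot12, Them7 and Eci3, and the white cell of Acot3 in cerebellum marks a missing array, which the fit leaves out.

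A gene was counted as kept to one organ when it was higher there, above background on both arrays of that organ and on neither array of the other. By this rule 1.46% of all probes were kept to liver and 2.97% to small intestine. Of the metabolic genes 2 were kept to liver (1.18%) and 6 to small intestine (3.55%), both shares close to those of all probes. On all 4 arrays 145 of 169 metabolic genes were above background, against 64% of all probes. Where one organ was not well above background, the fold is given as the smallest over every processing setting run and over the Cy3 level against the lowest level above background on each dim array. These values differed widely, as for Lct from 14.2-fold with median centring to 4487-fold by that Cy3 level.

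Both genes kept to liver were thioesterases, and both were also present in kidney. Them7 had logratios of 4.80 and 5.11 in liver and -0.36 and -0.43 in small intestine, at least 18.9-fold higher in liver (limma adjusted p = 1.97e-09), and its kidney mean of 6.18 was above that of liver. Acot3, which lies among near-identical paralogs, had 0.90 and 2.02 in liver and -0.17 and -0.20 in small intestine, at least 1.67-fold higher (limma adjusted p = 0.000336). The Acot3 call was lost when arrays were centred on the median (0.74, adjusted p = 0.187) or when slide was a random block (1.58, adjusted p = 0.0537).

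The genes kept to small intestine were those of the brush border, plus Eci3. Sis, sucrase-isomaltase, which digests sucrose and starch ends, had logratios of 9.02 and 9.51 in small intestine and -0.61 and -0.68 in liver. It was at least 295-fold higher in small intestine (limma adjusted p = 1.51e-05). Lct, lactase, was at 4.61 and 5.47 in small intestine and -0.35 and -0.52 in liver, at least 14.2-fold higher (limma adjusted p = 3.08e-08). Vil1, villin, which bundles the actin of microvilli, was at least 22.7-fold higher, Slc9a2, a sodium-proton exchanger, at least 58.9-fold and Alpi, intestinal alkaline phosphatase, at least 4.82-fold. Eci3, an enoyl-CoA isomerase of fatty acid oxidation, was at 5.94 and 6.14 in small intestine and -0.11 and 0.10 in liver, at least 21.6-fold higher (limma adjusted p = 6.04e-13). Large intestine was above background on both arrays for 5 of these 6 genes, and for Sis on 1 of 2, with logratios of 7.91 and -0.46. Kept refers to these organs alone, and Slc9a2 was low in liver, the lowest of the 15 tissues, where its level differed from the mean of the 13 others by -4.67.

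Upstream sequences are shown for Sis and Lct, the disaccharidases kept to small intestine, and for Otc, a shared urea cycle gene. Each is the 250 bases before the RefSeq start in GRCm38.p6, written 5′ to 3′ on the gene's strand, at chr3:72967864-72968113 (minus strand) for Sis, chr1:128328319-128328568 (minus strand) for Lct and chrX:10252055-10252304 (plus strand) for Otc. Capitals mark matches, on either strand, to TTTATG, a core bound by CDX factors, and GTTAAT, a half-site of HNF1 factors.
Sis: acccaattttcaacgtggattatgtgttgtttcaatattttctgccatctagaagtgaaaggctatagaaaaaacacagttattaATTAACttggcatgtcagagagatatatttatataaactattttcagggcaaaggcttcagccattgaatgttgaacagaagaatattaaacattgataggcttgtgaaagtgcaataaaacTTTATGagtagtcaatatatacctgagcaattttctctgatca
Lct: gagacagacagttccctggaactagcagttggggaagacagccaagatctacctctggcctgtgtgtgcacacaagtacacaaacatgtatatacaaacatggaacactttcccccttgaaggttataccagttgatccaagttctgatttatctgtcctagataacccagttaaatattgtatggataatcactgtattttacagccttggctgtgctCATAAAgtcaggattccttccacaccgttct
Otc: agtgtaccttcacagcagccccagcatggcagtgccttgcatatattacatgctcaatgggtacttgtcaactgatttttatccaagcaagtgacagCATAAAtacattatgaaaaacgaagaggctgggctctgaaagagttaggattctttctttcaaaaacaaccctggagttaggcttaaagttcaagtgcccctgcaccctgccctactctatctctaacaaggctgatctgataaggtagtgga
The CDX core occurred once in each of the 3 windows, 43 bases before the start in Sis and 31 in Lct counted from the first base of the match, and 153 in Otc. The HNF1 half-site was found in Sis only among the 3. Of 27025 promoter windows of this length, 11.1% held the CDX core and 6.52% the HNF1 half-site. The HNF4 half-site CAAAGTCC was in 1.22% of windows and in none of the 3 shown. It was in 2 of the 21 metabolic genes higher in small intestine with a promoter in the table (9.52%) and in 0 of the 51 higher in liver. The CDX core was in 3 of the same 21 (14.3%) and in 5 of the 51 (9.8%), and the HNF1 half-site in 1 (4.76%) and 5 (9.8%). A match is a run of letters and not a measured binding site.

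Amino acid and nitrogen metabolism was the group with the most genes higher in liver, 20 of 29 (69%, against 11.1% of all probes). In small intestine 1 was higher (3.45%, against 13.5% of all probes). Rida, which clears reactive imines, had 5.39 and 5.63 in liver and -1.18 and -1.35 in small intestine, a 109.4-fold difference in the logratio (limma adjusted p = 6.78e-11) and a 47.8-fold difference in the Cy3 level. Gcdh, glutaryl-CoA dehydrogenase of lysine breakdown, was 24.5-fold higher in liver and Glul, glutamine synthetase, 22.3-fold, with logratios of 3.10 and 3.10 in liver against -1.40 and -1.35. The exception was Bckdk, the kinase that restrains branched-chain amino acid breakdown, which was lower in liver by 1.42 ± 0.32 on the log2 scale (limma adjusted p = 0.00149).

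In fatty acid oxidation, 10 of 19 genes were higher in liver (52.6%, against 11.1% of all probes). In small intestine 2 were higher (10.5%, against 13.5% of all probes), and 7 were not called. Those higher in small intestine included Eci3. Those higher in liver included the acyl-CoA dehydrogenases Acadl, Acadm, Acads and Acadvl, which differed by 1.06 to 1.41 on the log2 scale. Of these, only Acadl was also called by the Cy3 level alone, where Acadm was at 1.16 (limma adjusted p = 0.0653), Acads at 0.99 (limma adjusted p = 0.0514) and Acadvl at 0.79. Heart exceeded both organs for Acadl, Acadm and Acadvl. Hadha and Hadhb, the subunits of the mitochondrial trifunctional protein, were not called, at 0.34 ± 0.19 and -0.12 ± 0.34. Acyl-CoA thioesterases and synthetases were a separate group. In it 9 of 20 genes were higher in liver (45%, against 11.1% of all probes) and 2 in small intestine (10%, against 13.5%). Of this group, Acsl1, which activates long-chain fatty acids, was 15.5-fold higher in liver. Acss1, the mitochondrial acetyl-CoA synthetase, was 70.1-fold higher in small intestine, at 2.65 and 2.82 against -3.44 and -3.35 in liver.

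In the lipid group 14 of 24 genes were higher in liver (58.3%, against 11.1% of all probes). In small intestine 4 were higher (16.7%, close to the 13.5% of all probes). Elovl5, a fatty acid elongase, was 16.9-fold higher in liver, and Acly, which makes cytosolic acetyl-CoA for fat synthesis, 7.96-fold. Dgat1, which completes triglyceride synthesis from absorbed fat, had 4.0 and 4.45 in small intestine and 0.64 and 0.53 in liver, a 12.5-fold difference (limma adjusted p = 4.24e-09). Gpat3, a glycerol-3-phosphate acyltransferase, was 14.9-fold higher in small intestine, while its relative Gpat4 was 2.17 ± 0.20 higher in liver on the log2 scale.

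Of 26 xenobiotic genes, 8 were higher in liver (30.8%, against 11.1% of all probes), 4 in small intestine (15.4%, close to the 13.5% of all probes) and 14 were not called. Aox3 and Aox1, aldehyde oxidases, were 624.8-fold and 52.9-fold higher in liver, and Gsta3, a glutathione transferase, 113.9-fold. On the log2 scale Aox3 ranged from 8.10 to 9.51 over the settings run, with median centring the lowest, and Gsta3 was 51.0-fold higher by the Cy3 level. Abcb1a, the P-glycoprotein pump, had 4.24 and 4.47 in small intestine and -0.25 and -0.36 in liver. Of the flavin monooxygenases, Fmo1 was 2.36 ± 0.31 higher in liver and Fmo4 differed by -2.24 ± 0.20 on the log2 scale. The Fmo4 call was lost with processed signals (-1.55, limma adjusted p = 0.0945), and its difference was -1.43 with median centring.

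In the TCA cycle, carbohydrate and purine groups the shares called were nearer to the 24.6% of all probes. Of 14 TCA cycle genes, 4 were higher in small intestine and 1, fumarase (Fh1), in liver. Cs, citrate synthase, had 1.58 and 1.60 in small intestine and -0.35 and -0.13 in liver, while heart exceeded both organs at 2.02. Purine metabolism had 2 of 14 genes higher in each organ. Ada, adenosine deaminase, had 5.15 and 5.48 in small intestine and -1.17 and -1.49 in liver, a difference of -6.64 ± 0.22 on the log2 scale (limma adjusted p = 1.57e-14), and Adk, adenosine kinase, had 2.76 and 2.97 in liver and -0.70 and -0.68 in small intestine, an 11.8-fold difference (limma adjusted p = 7.31e-06). In carbohydrate metabolism 10 of 14 genes were not called, and Npl, which cleaves sialic acid, was 9.27-fold higher in small intestine.

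Outside the metabolic list, the largest differences in favour of liver after Aox3 were those of the secreted proteins Spp2 and F13b. Spp2 had logratios of 8.07 and 8.07 in liver and 0.11 and 0.07 in small intestine, at least 92.7-fold higher (limma adjusted p = 3.58e-17). F13b, a subunit of coagulation factor XIII, was at least 59.5-fold higher. Kidney was the next tissue for both, at 7.44 and 6.98. All 11 tested genes of the secreted plasma protein list were higher in liver, against 11.1% of all probes. In favour of small intestine, AA467197 was at least 204-fold higher and Phgr1 at least 104-fold. Pls1, an actin bundler of microvilli, was at least 53.6-fold higher and Lypd8 at least 25.4-fold, and Exoc3l4 and Mgat4a were 100.7-fold and 78.9-fold higher.

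Marker lists of other cells were counted as well. Of 37 cell division genes, 18 were higher in small intestine (48.6%, against 13.5% of all probes) and 0 in liver (against 11.1%). In the same order of organs, Birc5 was at -1.49 and -1.79 against -4.11 and -3.98. Of 3 smooth muscle genes, Des and Lmod1 were higher in small intestine and Synpo2 was not called, at 1.34 and 1.35 in liver and 1.02 and 1.48 in small intestine. The summed level of the 3 in small intestine was 3720 and 6260 against 1220 and 1260 in liver. Zg16, the only goblet cell marker with a probe, was above background on both arrays of small intestine and on neither of liver. Of 11 lymphocyte genes, 3 were higher in small intestine (27.3%, against 13.5% of all probes), 1, Zap70, in liver (9.09%, against 11.1%) and 7 were not called. Among the 3, Ptprc lost its call under 11 of 15 settings, Fcrla under 4 and Fcmr under 3. The summed level was 4760 and 4050 in liver and 3590 and 2840 in small intestine. Of 7 macrophage genes 6 were not called. The other, Marco, a macrophage receptor, had 6.37 and 4.35 in liver and 0.75 and 0.84 in small intestine, and its difference of 4.56 became 3.55 without liver replicate 1 and 5.57 without liver replicate 2. Of 3 exocrine pancreas genes, 2 were higher in small intestine (66.7%, against 13.5% of all probes), Erp27 and Try5, and Amy2a5 was not called. Erp27 lost its call under 3 of 15 settings. Try5 rested on one array, at 3.53 and -0.07 in small intestine, and lost its call under 5 of 14 settings. Its difference was -0.14 without small intestine replicate 1 and -3.74 without small intestine replicate 2. The part of these cells in the metabolic differences was not tested.

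The reference channel bears on the size of the largest differences. The same reference RNA was used on all arrays, but at spots where the tissue signal was very bright the Cy5 signal rose too. For Apoa2, an apolipoprotein, the Cy3 signal was 265800 and 290350 in liver and 349.3 and 246.4 in small intestine, and the Cy5 signal was 84092 and 96114 in liver against 498.3 and 582.1 in small intestine. Its logratio differed by 2.91 and its Cy3 level by 8.69 on the log2 scale. Over 156 probes with a log2 Cy3 signal above 16 in either organ, Cy5 was higher in the brighter organ by a median of 2.85, and the median difference was 3.97 in the logratio and 6.41 in the Cy3 level. Between 10 and 12 the corresponding medians were 0.77 and 0.74. The Cy5 difference was over 1 from the median of all probes for 3.6% of probes and for 23 of the 169 metabolic genes, including Lct, Vil1, Alpi, Sis, Agxt and Acaa1b. For Agxt the difference was 3.96 in the logratio and 7.27 in the Cy3 level, and for Acaa1b 1.08 and 4.22, with an adjusted p of 8.47e-05 in limma for the Cy3 level. The difference in the Cy3 level exceeded that in the logratio by over 1 for 11 metabolic genes and fell short of it by over 1 for 2, Gsta3 and Rida. Between the measures, 57 of the 66 metabolic genes higher in liver and 28 of the 28 higher in small intestine were called the same way, and 0 were called in opposite directions. The cause of the Cy5 rise was not tested.

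**Figure D4:**
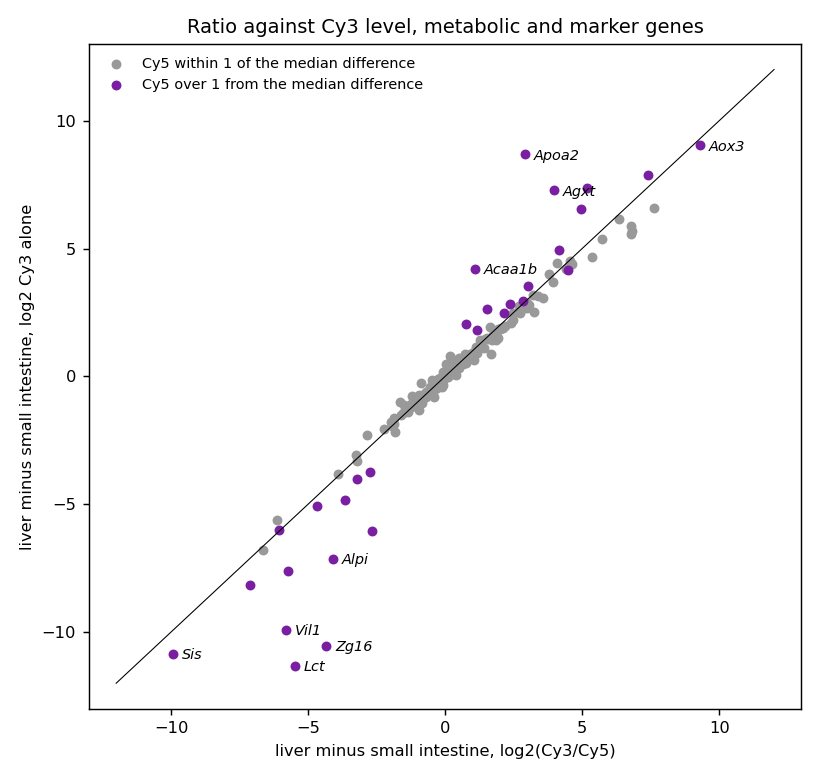
Difference between liver and small intestine in log2(Cy3/Cy5) on the horizontal axis and in log2 Cy3 alone on the vertical axis, with 1 point per metabolic or marker gene and a line of equality. Purple points have a Cy5 difference over 1 from the median of all probes, and Lct, Vil1, Zg16 and Apoa2 lie far from the line, on the side of a larger difference in Cy3.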

How the data were processed

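Dual-colour Agilent mouse arrays were scanned and quantified by the authors with Feature Extraction 9.5.1.1, and the deposited spot files hold signal intensity per channel. The authors' value table, deposited on a log10 scale, behaved as the processed Cy3 intensity adjusted for the gene's Cy5 deviation (slopes 0.998 and -0.997 over 11700 bright probes, R squared 1), and served as an alternative and to define the 25030 probes. Its centring is not stated in the sources used here, and its array medians ran from 2.5 to 2.65. From the spot intensities, normexp background correction (offset 50) was applied, arrays were normalized within by loess, 475 outlier spots were left out and spots of a probe were averaged (limma 3.58.1, R 4.3.3). The offset shrinks differences of dim probes. A probe was kept if well above background in Cy3 on both arrays of any tissue. One model with a coefficient per tissue was fitted over all 30 arrays by limma, with 15 residual degrees of freedom (prior 2.95, prior SD 0.22), and p-values were adjusted over 21019 probes by Benjamini-Hochberg. A missing value drops that array for its probe (167 probes). For genes not well above background in one organ, the fold printed is the smallest over all settings and over Cy3 levels after loess and Aquantile normalization set against the array floor, which are open to dye bias. The smallest was chosen after seeing the data. Cy3 levels alone were normexp corrected and quantile normalized. On simulated data from these spreads, 83.6% of changes of 1.5, 89.6% of 2 and 98.5% of 4 (log2) were recovered. This was for the direct comparison over 20852 probes, with 10 of the unchanged probes called. The simulated noise was independent between arrays and few probes were changed. The real arrays had correlations of 0.69 within slides and 0.59 within scan days, and 24.6% of probes were called. These rates therefore do not give the error of the real comparison. No direct dye swap existed, so dye and tissue are not separated within an array, while differences between organs share the orientation. The number of arrays, 2 per organ from different animals, limits the precision.

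Symbols came from the study's probe lists, used for names only, and were updated through the RefSeq table of GRCm38.p6: among symbols of tested probes 3166 were current, 1534 were synonyms and 347 matched neither. The probe lists' own values, fold changes and p-values included, were not used. The spot files' gene name columns repeat probe names, and no probe coordinate is printed. A gene with several probes was represented by the brightest, which affected 19 genes, none listed. The members and lists were chosen with earlier results of these data known, so lists are described by counts and medians with no test. A pair of entries were removed from the lists after their values were seen, as misassigned: neither was called. Named genes were the shared and kept metabolic genes, the 12 largest differences per direction, the 4 largest per list and direction, and the markers. Others named in the text, such as the acyl-CoA dehydrogenases, Hadha, Hadhb, Bckdk, Fmo1 and Birc5, are list members chosen after their values were seen. Replicate numbers came from the labels. Deviations of same-numbered liver and small intestine arrays correlated at 0.244 over probes. Alternatives changed the background correction, normalization, signal source, filter, threshold, arrays, blocks and tissues compared. Some members are counted but not reported here by name.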

Additional observations from a re-analysis of the deposited data

Results flagged for a closer look

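Signals outside the values compared above appeared in 2 places. Of 16976 probes outside the value table, 13618 passed the same filter, and 1103 of them were higher in liver and 1274 higher in small intestine, 17.5% in all. In the Cy5 channel, which carried the same reference on every array, the brighter organ was higher by a median of 2.85 on the log2 scale over the probes with a log2 Cy3 signal above 16. Groups of 2 arrays are too small for a test of outlying samples.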

How the results depend on the processing

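No called difference among the 123 named genes changed direction under the alternatives run, while over all tested probes 1 was called in opposite directions by the logratio and the Cy3 level alone. Differences that were not called did, among them Abcg2 (-0.522 to 1.43), Acot4 (-0.267 to 0.477) and Agpat2 (-0.00934 to 0.499). With a minimum log2 difference of 2, counts fell to 1004 probes higher in liver and 1315 in small intestine, 1179 and 1087 enriched in each, 38 and 16 metabolic genes higher in each, 9 shared and 1 kept to liver. With no minimum, 3656 probes were higher in liver, and 4516 and 4128 were enriched in liver and small intestine. Genes kept to liver numbered 1 with median centring and 1 with slide as a random block. Leaving out each array in turn gave 2163 to 2238 probes higher in liver, 2532 to 2629 in small intestine, 2324 to 2390 and 2189 to 2436 enriched, 60 to 61 and 26 to 30 metabolic genes higher, 23 to 27 shared, 2 to 3 kept to liver and 6 to 7 kept to small intestine. With the replicate number as a block, 2339 and 2854 probes were called, 65 and 29 metabolic genes, and 26 were shared. The block changed the call of none of the 123 named genes. Chosen after seeing the data, enrichment within the scan day left 22 shared genes, and leaving out probes of differing Cy5 left 54 and 19 metabolic genes. Of 92 called named genes, 74 were called the same way under all 15 settings. The Cps1 call was lost under 7. Some settings ended the calls of Abcb4 (adjusted p = 0.0529 without small intestine replicate 1), Acot12 (0.88 with Cy3 levels alone), Fmo4 (adjusted p = 0.0945 with processed signals) and Lmod1 (-0.94 with median centring), among others. Sizes also moved, as for Dgat1 (-4.83 to -3.38) and Acss1 (-6.48 to -5.44). A fixed scan day block could not be fitted. The cause of these changes was not tested. The number of arrays, 2 per organ with the organs on different days, limits every comparison.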
